A study of Mus musculus with 4 samples.

Results

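DHX9 peaks that face each other on opposite strands are described here: nuclear peaks of the RNA helicase DHX9 with a peak on the other strand that overlapped them or lay at most 1000 bases away. They were chosen by position and strand alone, from the 1 deposited list of peaks. Of 59514 nuclear peaks, 551 met the rule (0.926%, 95% Wilson interval 0.852 to 1.01%), with 275 plus-strand and 276 minus-strand peaks among them. These 551 peaks are called members. The 49 peaks on the mitochondrial genome were left out, and the other 58963 nuclear peaks had no such partner. The distances that chose the peaks are given as a description and were not tested.

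The peaks came from FLASH, a form of CLIP-seq in which RNA is crosslinked to protein with ultraviolet light, pulled down with an antibody and sequenced. DHX9 was pulled down with a rabbit antibody from Abcam in 2 samples, and rabbit IgG from Santa Cruz served as the control in 2 samples, each pair labelled as biological replicates A and B. All 4 samples came from WT26, an embryonic stem (ES) cell line from a male mouse of strain C57BL/6x129sV that grows without feeder cells, so the list speaks for 1 line. The list holds positions and strands only: it has no height, p-value or read count, the depth behind a peak is unknown, and nothing is given per replicate or for IgG alone. The ES cell genes Pou5f1, Nanog, Sox2 and Esrrb held 12, 13, 6 and 64 peaks, while the lineage genes Afp, Cdx2 and Eomes held none. None of the peaks in those ES cell genes had a close partner on the other strand. Over all nuclear peaks only 0.926% had one, so this is read as no result about these genes.

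DHX9 unwinds double-stranded RNA and RNA-DNA hybrids with its helicase core and binds duplexes through double-stranded RNA-binding domains. Transcripts made from both strands of a locus can in principle pair with each other where they overlap. Opposite-strand transcripts also arise side by side at bidirectional promoters, where a pair of genes is read outwards from a shared start region, and at gene ends, where a pair of genes is read towards each other. A peak on a strand is a call of RNA of that strand in the pulldown, and the reads behind the call were not checked here. It does not show that the RNA was paired.

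The peaks formed 564 plus-minus pairs in 3 arrangements. In 113 pairs (20%) the peaks overlapped. In 248 pairs (44%) they were divergent, with the minus-strand peak at the lower coordinates so that the strands read away from each other. In 203 pairs (36%) they were convergent, with the strands reading towards each other. The divergent pairs at gene starts are shown first, since they include the loci where both genes of a head-to-head pair carried a peak.

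The promoter windows below lay between the peaks of a divergent pair, or partly under the opposite-strand peak. They are shown as examples of gene starts at divergent pairs. Each runs from 250 bases before to 50 after an annotated start, 5′ to 3′ along the strand of the gene, from RefSeq (GRCm38.p6). The first 4 windows lie wholly between the peaks of a divergent pair. In them capitals mark 3 promoter motifs on either strand. They are the CCAAT box (CCAAT, read as ATTGG on the other strand), the GC box (GGGCGG, read as CCGCCC) and the TATA box (TATAAA, read as TTTATA). The windows are Hspe1 at chr1:55087898-55088197, H2bc12 at chr13:22035571-22035870, H4c8 at chr13:23530794-23531093 and Snhg1 at chr19:8723237-8723536, each on the plus strand.
Hspe1: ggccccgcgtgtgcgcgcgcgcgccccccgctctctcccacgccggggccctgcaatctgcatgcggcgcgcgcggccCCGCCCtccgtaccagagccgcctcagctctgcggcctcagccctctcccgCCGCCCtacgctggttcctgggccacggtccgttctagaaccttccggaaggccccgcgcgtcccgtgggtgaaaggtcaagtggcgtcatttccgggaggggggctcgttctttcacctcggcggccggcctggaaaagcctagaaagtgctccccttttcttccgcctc
H2bc12: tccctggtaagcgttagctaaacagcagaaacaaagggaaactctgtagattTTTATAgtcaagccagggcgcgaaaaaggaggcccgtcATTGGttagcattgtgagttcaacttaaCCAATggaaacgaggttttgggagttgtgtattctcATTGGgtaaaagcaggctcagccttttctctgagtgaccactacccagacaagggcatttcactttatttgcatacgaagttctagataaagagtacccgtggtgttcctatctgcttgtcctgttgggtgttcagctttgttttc
H4c8: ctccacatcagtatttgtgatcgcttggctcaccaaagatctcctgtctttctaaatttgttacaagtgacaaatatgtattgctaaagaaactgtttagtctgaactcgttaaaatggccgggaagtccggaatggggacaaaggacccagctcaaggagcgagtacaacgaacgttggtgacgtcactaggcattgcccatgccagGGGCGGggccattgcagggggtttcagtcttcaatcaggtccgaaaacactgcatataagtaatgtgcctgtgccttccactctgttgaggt
Snhg1: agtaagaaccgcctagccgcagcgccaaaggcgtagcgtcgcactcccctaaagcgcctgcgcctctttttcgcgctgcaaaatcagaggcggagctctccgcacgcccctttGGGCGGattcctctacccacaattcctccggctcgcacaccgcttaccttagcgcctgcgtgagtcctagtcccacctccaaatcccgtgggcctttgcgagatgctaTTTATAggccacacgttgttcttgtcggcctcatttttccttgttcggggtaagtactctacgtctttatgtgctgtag
In the next 2 windows capitals mark the bases under a DHX9 peak on the strand opposite to the gene. Top1 at chr2:160645647-160645946 and Utf1 at chr7:139943606-139943905 are both on the plus strand.
Top1: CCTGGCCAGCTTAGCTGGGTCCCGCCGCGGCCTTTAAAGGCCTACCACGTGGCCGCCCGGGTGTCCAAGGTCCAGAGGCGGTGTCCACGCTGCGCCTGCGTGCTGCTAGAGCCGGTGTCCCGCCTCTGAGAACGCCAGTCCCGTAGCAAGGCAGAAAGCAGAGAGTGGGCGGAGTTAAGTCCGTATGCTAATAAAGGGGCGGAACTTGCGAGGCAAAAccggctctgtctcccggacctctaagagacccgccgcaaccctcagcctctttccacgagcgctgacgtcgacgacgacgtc
Utf1: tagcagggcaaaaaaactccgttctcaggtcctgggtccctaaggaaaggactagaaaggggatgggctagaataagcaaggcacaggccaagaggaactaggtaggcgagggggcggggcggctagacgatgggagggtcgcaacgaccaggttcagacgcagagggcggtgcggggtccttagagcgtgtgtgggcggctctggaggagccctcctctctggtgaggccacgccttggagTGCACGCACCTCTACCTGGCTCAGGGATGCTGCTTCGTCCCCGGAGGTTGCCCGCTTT

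The Hspe1 window holds 2 matches to GGGCGG and none to the other motifs. The window of the histone gene H2bc12 holds 3 matches to CCAAT and 1 to TATAAA, that of H4c8 holds 1 to GGGCGG, and that of the snoRNA host gene Snhg1 holds 1 to GGGCGG and 1 to TATAAA. Over the 24 windows that lay wholly between the peaks of a divergent pair, GGGCGG was present in 18 (75%), against 35.7% of all 32851 promoter windows. CCAAT was present in 6 of the 24 (25%), against 37.4% of all windows, and TATAAA in 5 (20.8%), against 13.6%. Both strands were searched, and the motifs share no bases in the printed windows. Windows of a head-to-head gene pair overlap, so the 24 are not independent, and a match is only a match of letters. All windows include those of genes without a DHX9 peak. Windows of genes with a peak were not compared separately, so the shares are not read as particular to divergent pairs.

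Of the 3 arrangements, divergent pairs had the highest share at annotated gene starts. A start of either strand lay within 1000 bases of the interval between the peaks in 59 of 248 divergent pairs (23.8%, 95% interval 18.9 to 29.5%), in 10 of 113 overlapping pairs (8.85%, 4.88 to 15.5%) and in 8 of 203 convergent pairs (3.94%, 2.01 to 7.58%). Pairs share peaks, so these intervals are narrower than independent loci would give, and they cover counting error only. Starts were known only for genes with a RefSeq promoter window, 27025 of 49997 placed genes. No start or end was known on chromosome 18, so its pairs and its 1473 peaks count as having none nearby. In 41 divergent pairs at 30 clusters (members chained within 1000 bases) a start lay between the peaks themselves, and in no convergent pair. For peaks taken one at a time, 107 of the 551 (19.4%, 16.3 to 22.9%) lay within 1000 bases of a start, against 2463 of the other 58963 nuclear peaks (4.18%, 4.02 to 4.34%).

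In 7 divergent pairs at 7 clusters the annotated starts of both genes of a head-to-head pair lay between the peaks. Hspd1 and Hspe1, which encode the mitochondrial chaperonins Hsp60 and Hsp10, had a minus-strand peak at chr1:55087439-55087704 in Hspd1 and a plus-strand peak at chr1:55088314-55088432 in Hspe1, 609 bases apart. The Hspe1 peak began 166 bases downstream of its start. Read along its own strand, the Hspd1 peak began 228 bases downstream of the nearer of its annotated starts. Mau2, a cohesin loading factor gene, and Sugp1, a splicing factor gene, had peaks 515 bases apart on chromosome 8. On the same chromosome Cog8, of a Golgi tethering complex, and Nip7, a ribosome biogenesis factor gene, had peaks 815 bases apart. The ribosomal protein gene Rps2 and the snoRNA host Snhg9 lay at such a pair on chromosome 17, and so did the F-box gene Fbxo11 and the noncoding Gm45950. At Rps2 and Snhg9 the plus-strand peak covered the whole snoRNA gene Snora64, and the minus-strand peak covered the whole of Snora78. The annotated body of Rps2 (chr17:24718121-24721927) encloses Snhg9, so both peaks had their midpoints in Rps2. The Rps2 start between the peaks, at 24720063, lies inside that body.

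Histone genes lay at several divergent pairs, in 2 of which the starts of both genes lay between the peaks. Members lay at 6 clusters with a histone gene, with 15 peaks in all. A gene of the H2A, H2B, H3 or H4 clusters held the midpoint of 14 of the 551 members (2.54%, 1.52 to 4.22%), against 23 of the other 58963 nuclear peaks (0.039%, 0.026 to 0.0585%), a comparison chosen after the values were seen. Divergent pairs joined H2ac12 with H2bc12 at a gap of 904 bases, H2ac13 with H2bc13 at 512, H2ac15 with H2bc15 at 481 and H2ac6 with H2bc4 at 576 and 846, all on chromosome 13 and each an H2A gene beside an H2B gene. The peaks of H4c8 and the noncoding Gm11335 were 901 bases apart on the same chromosome. There the minus-strand peak was 31 bases wide, and its midpoint also lay in the tRNA gene n-TMcat9. On chromosome 3 the peaks of H2ac20 and H2ac21 overlapped by 191 bases. Replication-dependent histone genes are near-identical copies of each other, so peaks in them are uncertain: how reads matching several copies were placed is not given in the sources used here.

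Other divergent pairs ran between different genes without a known start of both genes between the peaks. Across all arrangements the peaks of 29 pairs at 20 clusters had their midpoints in different genes, and 26 of the 29 were divergent. Some of these genes overlap at their edges, as Hspd1 and Hspe1 do. Eef1b2, a translation elongation factor gene, faced Ndufs1, of respiratory complex I, at gaps of 452 and 589 bases. Rpl4, of the large ribosomal subunit, faced the kinetochore gene Zwilch in 4 pairs at gaps of 515 to 940 bases. Snhg1 faced Slc3a2, an amino acid transporter subunit gene, at 744 bases. Rnu12, the U12 RNA of the minor spliceosome, faced Poldip3 at 540, and the tripartite motif-like genes Triml2 and Triml1 faced each other at 543. The 2 convergent pairs in different genes joined Rps25 with Ccdc84 at 942 bases and H2ac21 with H2ac20 at 358.

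At some starts the upstream peak on the other strand lay in no annotated gene. Of 37 genes with a start between the peaks of a divergent pair, 7 had such an upstream peak: Actr2, Ankrd10, Ccar1, Ppp6r3, Smndc1, Tbrg4 and Top1. The upstream peak lay 33 to 836 bases before the start. It was nearest in Top1, the DNA topoisomerase I gene, where a minus-strand peak at chr2:160645629-160645864 ended 33 bases before the start and covered 218 of the 300 bases of the printed window. The first Top1 peak on the gene's own strand began 724 bases after the start. Further minus-strand peaks lay around it: within 5000 bases of this cluster were 11 minus-strand and 2 plus-strand peaks. The whole Top1 gene held 7 minus-strand and 13 plus-strand peaks. In Utf1, an ES cell transcription factor gene, a minus-strand peak at chr7:139943848-139944033 spanned the start and covered 58 bases of the window, 48 bases before the first of 3 plus-strand peaks. These genes were singled out after their values were seen.

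tRNA genes were a further group at divergent pairs. Of the 551 peaks, 15 overlapped a tRNA gene (2.72%, 1.66 to 4.44%), against 102 of the other 58963 (0.173%, 0.143 to 0.21%). A tRNA gene held the midpoint of 12 members. These 12 lay at 8 clusters, and 7 of these clusters held divergent pairs only. On chromosome 19 the minus-strand peaks in n-TLtaa4 and n-TRtct1 lay 776 and 270 bases from a plus-strand peak in n-TVtac1, and on chromosome 11 n-TRtct4 and n-TLtag3 were 656 bases apart. tRNA genes also exist in near-identical copies, and their peaks are uncertain for the same reason.

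**Figure D1:**
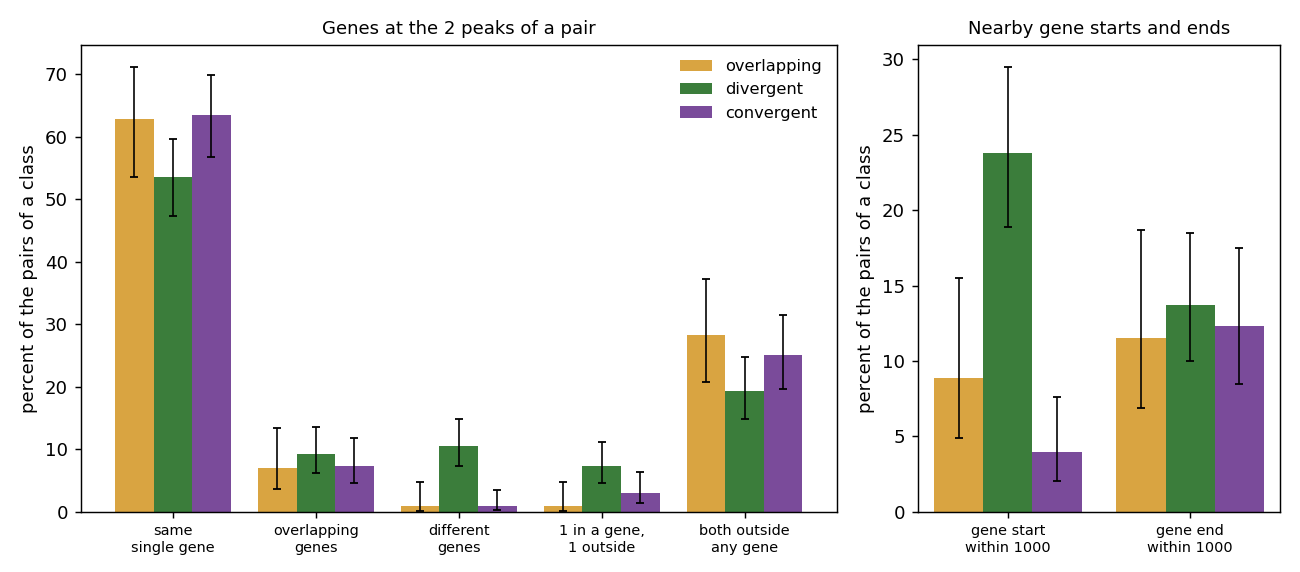
Percent of the pairs of each arrangement (overlapping, n = 113; divergent, n = 248; convergent, n = 203) by the genes at their peaks (left) and by an annotated start or end within 1000 bases (right). Bars are shares and lines are 95% Wilson intervals; divergent pairs stand highest for different genes (10.5%) and for nearby starts (23.8%), while nearby ends lie between 11.5 and 13.7% in all 3.

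At the limit of 1000 bases, shares at gene ends were close to each other in the 3 arrangements. A gene end lay within 1000 bases of the interval between the peaks in 25 of 203 convergent pairs (12.3%, 8.48 to 17.5%), 34 of 248 divergent pairs (13.7%, 9.98 to 18.5%) and 13 of 113 overlapping pairs (11.5%, 6.85 to 18.7%). An end lay between the peaks in 3 convergent pairs at 3 clusters. The intervals of the 3 arrangements overlap widely. Within 500 bases of an end the shares were 3.45% of convergent, 9.68% of divergent and 6.19% of overlapping pairs, and within 2000 bases 24.1, 25.4 and 26.5%.

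Over all arrangements, most pairs lay inside a single gene. Both peaks fell in the same single gene in 333 of 564 pairs (59%, 54.9 to 63%), in 46 pairs they fell in overlapping genes, in 25 pairs 1 peak was in a gene and 1 outside, and in 131 pairs (23.2%, 19.9 to 26.9%) both were outside any gene. By arrangement, the same-gene share was 62.8% of overlapping (53.6 to 71.2%), 53.6% of divergent (47.4 to 59.7%) and 63.5% of convergent pairs (56.7 to 69.9%). Large clusters weigh in these shares: counted by cluster, 57 of 133 had all their pairs inside 1 single gene. A gene was assigned where its body held the midpoint of the peak, on either strand. Of the 551 peaks, 410 lay in a gene body (74.4%, 70.6 to 77.9%), against 95.5% (95.3 to 95.6%) of the other nuclear peaks. Protein-coding genes held 65.9% of the 551 peaks, against 93.0% of the others, and lncRNA genes held 11.8%, against 4.46%.

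Members were found in 143 genes, of which 103 were protein-coding. These were 2.07% of the 4982 protein-coding genes with any nuclear peak, and in 64 of the 103 the members lay on both strands. Kxd1, whose product is a subunit of the BORC complex that positions lysosomes, held the most, 20 members among its 21 peaks (chr8:70513396-70523180), with 11 plus-strand and 9 minus-strand members. Clasrp, a splicing regulator gene, Phykpl, a lysine catabolism enzyme gene, and Sfpq, which encodes an RNA-binding protein of paraspeckles, held 13 members each. Bcl3, a regulator of NF-kappa B, held 12. The ring finger ubiquitin ligase gene Rnf220 and 4921524J17Rik held 11 each, and Mettl5, the gene of an 18S rRNA methyltransferase, held 10. Arv1, of sterol transport, the histone methyltransferase gene Setd1b, Slc35e2 and the noncoding Gm16023 followed with 8 each, and the last 2 share the same 8 peaks.

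Inside genes of known strand, members lay on both the sense and the antisense strand. The strand was known for the single gene around 283 members, and 98 of these peaks (34.6%, 29.3 to 40.3%) lay on the opposite strand. Among the other nuclear peaks 412 of 43994 did (0.936%, 0.851 to 1.03%), and over all nuclear peaks 1.15% did. The rule favours this, because a pair inside 1 gene always has 1 peak that is antisense, so nothing is read from the difference. The 98 antisense members lay in 54 genes and had a median width of 178.5 bases, against 202 for the 185 sense members. Along the gene, read 5′ to 3′, in 5 bins of equal length, 29.6% (21.5 to 39.3%) of the antisense members lay in the last bin and 16.3% (10.3 to 24.9%) in the first. Of the sense peaks that were not members, 12% lay in the last bin and 26.8% in the first. A few genes weigh in these shares, and members of 1 gene are not independent, so the intervals are too narrow. Clasrp gave 7 antisense members of the last bin, at 87 to 95.4% of the way along the gene, and Maml1 gave 4. Sfpq had the most antisense members, 9, between 67.2 and 80% of the way along.

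In most of these genes the antisense peaks were few beside the sense ones. Of 52 protein-coding genes of known strand with members on both strands, 42 had more sense than antisense peaks over the whole gene, 5 had equal numbers and 5 had more antisense peaks. Glg1, a Golgi protein gene, had 1 antisense and 99 sense peaks, Tcf7l1, a transcription factor gene of the Wnt pathway, had 1 and 81, and Sfpq had 15 and 37. The genes with more antisense peaks were Phykpl, Maml1, Mospd3, Dnttip1 and Ccdc84. Phykpl had 16 antisense and 8 sense peaks, and Maml1, a Notch coactivator gene, had 9 and 7. Dnttip1, of a histone deacetylase complex, had 25 antisense and 1 sense peak, and the noncoding Gm11457, annotated within the same stretch on the other strand, had 15 peaks on its own strand. These counts include peaks that also lie in another gene. Of 12 lncRNA genes with members on both strands, 6 had more sense peaks, 3 more antisense peaks and 3 equal numbers.

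**Figure D2:**
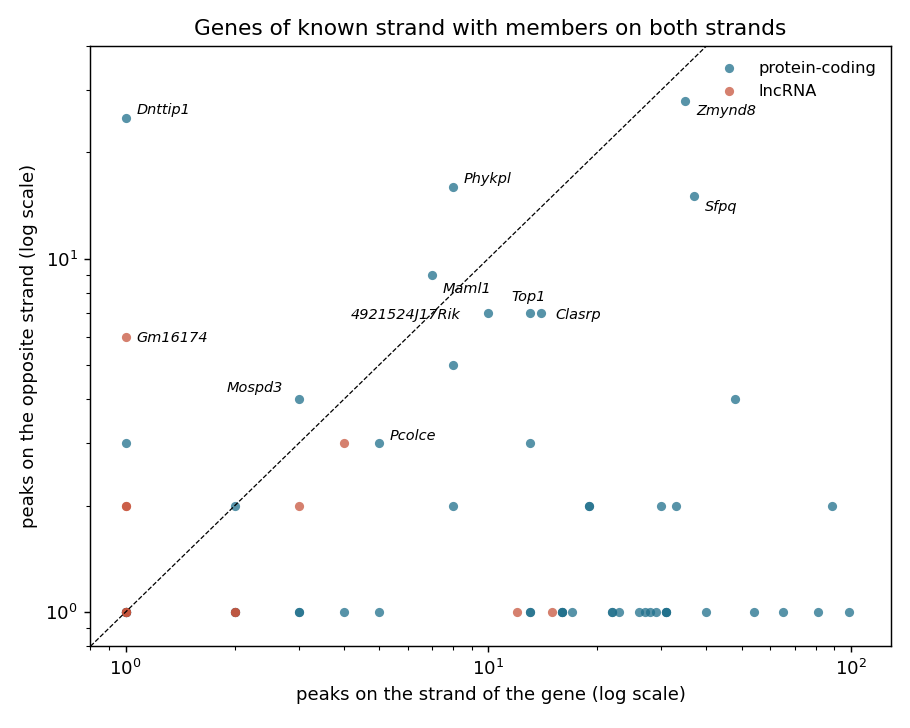
Peaks on the opposite strand (vertical) against peaks on the gene's own strand (horizontal), both on log scales, for the 52 protein-coding and 12 lncRNA genes of known strand with members on both strands. Each point is a gene, some points coincide, and the dashed line marks equal numbers; Dnttip1, Phykpl, Maml1, Mospd3 and the unlabelled Ccdc84 lie above it, and most other protein-coding genes lie at 1 or 2 opposite-strand peaks.

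The members gathered in 133 clusters, formed by chaining members within 1000 bases of each other on either strand. Of these, 60 held only 2 members, 39 held at least 5 and 10 held at least 10, and those 10 contained 139 members (25.2%). In 108 clusters 1 of the strands was represented by a single peak. These include the 60 with only 2 members, where this must hold, and 48 with at least 2 peaks on the other strand. At least 3 peaks on each strand were found in 12 clusters. Divergent pairs alone made up 55 clusters, convergent pairs alone 11 and overlapping pairs alone 10, while 57 mixed arrangements. Counted by cluster, a divergent pair was present in 108, a convergent pair in 63 and an overlapping pair in 53.

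The largest cluster spanned 8226 bases, and 20 of its 25 members lay in Kxd1. It held 14 plus-strand and 11 minus-strand peaks in 63 pairs, of which 15 overlapped, 25 were divergent and 23 convergent, and 1579 of its bases were covered on both strands. Within Kxd1 the strands were interleaved, and the longest overlap was 219 bases. The RefSeq windows give no strand for Kxd1, so its sense strand is not stated here.

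Long interleaved runs were also found at a few other loci. The sequence of these runs and of the Kxd1 cluster was not analysed here, so whether they hold repeats or multi-copy sequence was not tested. On chromosome 2 a cluster of 9 plus-strand and 9 minus-strand peaks (chr2:157591113-157596087) gave 42 pairs and lay beside and partly in Platr27, a lncRNA gene. Clasrp (chr7:19581066-19584773) held 7 plus-strand and 6 minus-strand peaks in 28 pairs, with 784 bases covered on both strands. Phykpl (chr11:51587713-51591596) held 6 and 7 in 25 pairs, of which 14 were convergent: its plus-strand peaks lay mainly at the lower coordinates and its minus-strand peaks at the higher. In 4921524J17Rik (chr8:85421504-85424396) 6 and 5 peaks made 20 pairs. Pcolce, the gene of a procollagen processing enhancer, lay at a cluster of 7 and 4 peaks in 18 pairs (chr5:137603234-137606417), 10 of them divergent. Sfpq (chr4:127040153-127045096) had 4 plus-strand and 9 minus-strand peaks and 10 convergent pairs among its 13. Mospd3 on chromosome 5 had 4 and 3 peaks and 7 convergent pairs among 12.

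**Figure D3:**
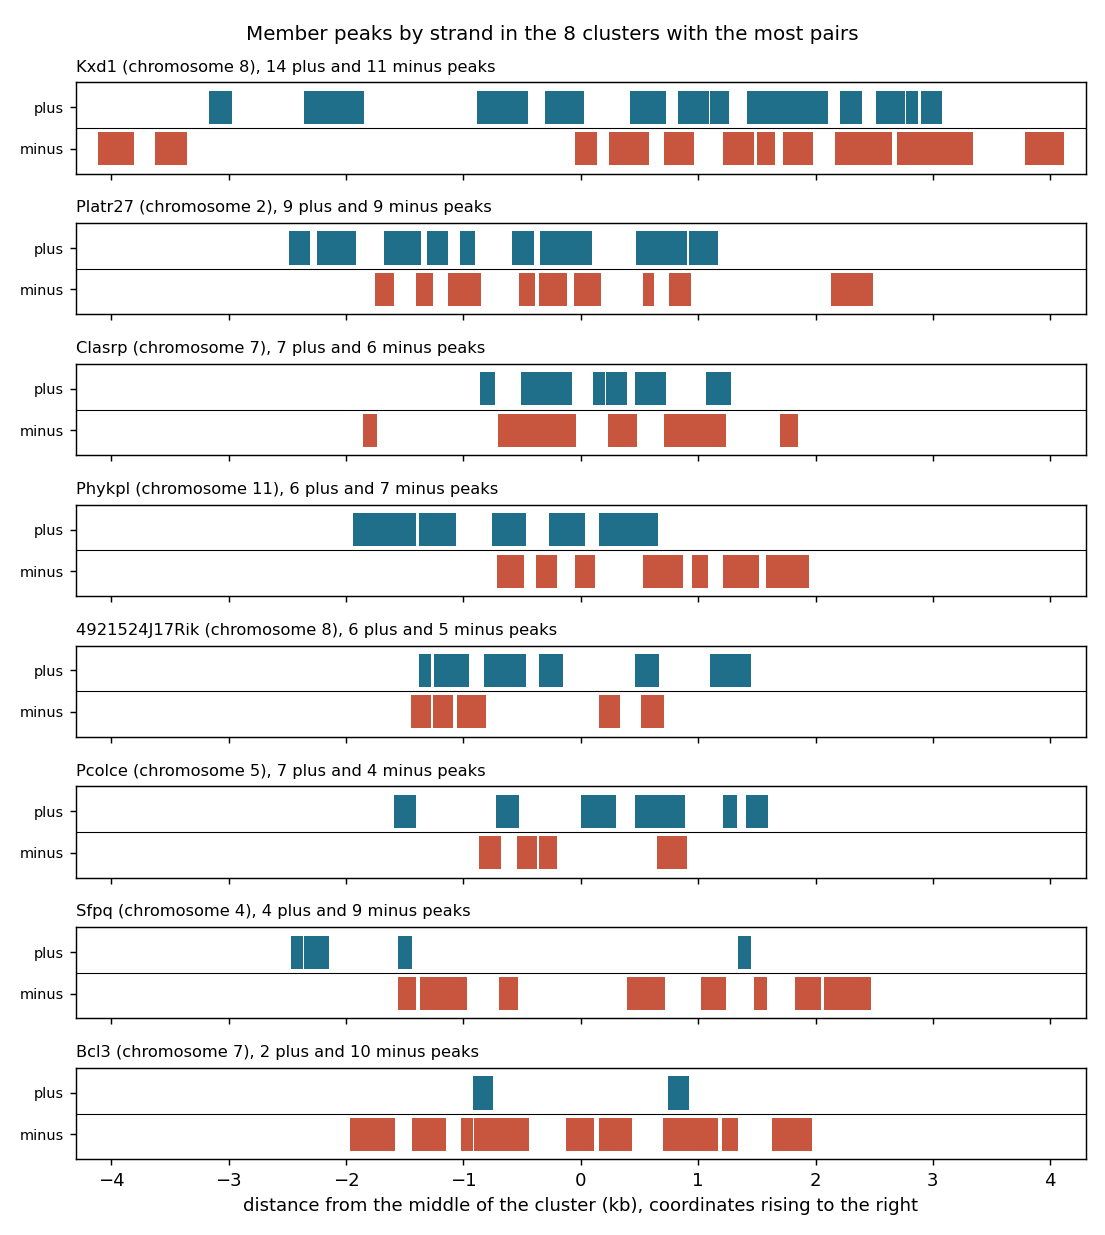
Member peaks on the plus strand (upper row of each map) and minus strand (lower row) in the 8 clusters with the most pairs, to scale, by distance in kb from the middle of each cluster; each map is named for the gene with the most members. The Kxd1 and Platr27 clusters alternate between strands along most of their length. Phykpl has only plus-strand peaks at its left end, only minus-strand peaks at its right end and both strands interleaved between. The Bcl3 cluster has 2 plus-strand peaks in a run of 10 on the minus strand.

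The longest overlaps were at an rRNA-like locus on chromosome 17. There a plus-strand peak at chr17:39848032-39848843 and a minus-strand peak at chr17:39848414-39848752 in the noncoding gene AY036118 shared 339 bases, the whole of the minus-strand peak. The cluster at Rn18s-rs5 and AY036118 (chr17:39843069-39848843) held 4 plus-strand and 7 minus-strand peaks, 12 pairs and 1365 bases covered on both strands. Its plus-strand peaks were at least 812 bases wide. Rn18s-rs5 is named as an 18S rRNA-related sequence, and rRNA genes exist in many copies, so these peaks are uncertain. The next longest overlap, 292 bases, was in the same cluster outside both genes, and the third was 284 bases in the noncoding Gm36876 on chromosome 11. Over the 113 overlapping pairs the median overlap was 102 bases, with a range of 2 to 339, and 12365 nuclear bases in all lay under peaks of both strands.

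Clusters outside genes held part of the members. In 27 clusters with 95 members no peak had its midpoint in a gene, and 7 of these clusters lay within 1000 bases of a gene. The largest had 2 plus-strand and 10 minus-strand peaks 2179 bases from Rpph1, the RNA component of RNase P (chr14:50802046-50805268). A cluster of 8 peaks lay 949 bases from Cbx1, a heterochromatin protein gene on chromosome 11, and 7 of these peaks were on the plus strand. A cluster of 5 peaks lay 1306 bases from the elongation factor gene Eef1a1 on chromosome 9. The 8 members on chromosome Y formed 1 cluster (chrY:90739916-90741844), 885 bases from Gm52481, with 6 plus-strand and 2 minus-strand peaks.

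The share of peaks that were members ranged from 0 to 10% between chromosomes. Chromosome 11 had 77 (1.05% of its peaks), chromosome 8 had 74 (1.43%), chromosome 2 had 67 (1.56%), chromosome 5 had 63 (1.37%) and chromosome 4 had 58 (1.33%). Chromosome 1 had 10 among 4728 peaks (0.212%, 0.115 to 0.389%) and chromosome 10 had 2 among 2034. No member was found among 1695 peaks on chromosome 12 (up to 0.226% by the Wilson interval) or among 1267 on chromosome X (up to 0.302%). On chromosome Y 8 of 80 peaks were members (10%, 5.15 to 18.5%), all from the 1 cluster. Members of 1 cluster are not independent, so these intervals are too narrow.

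**Figure D4:**
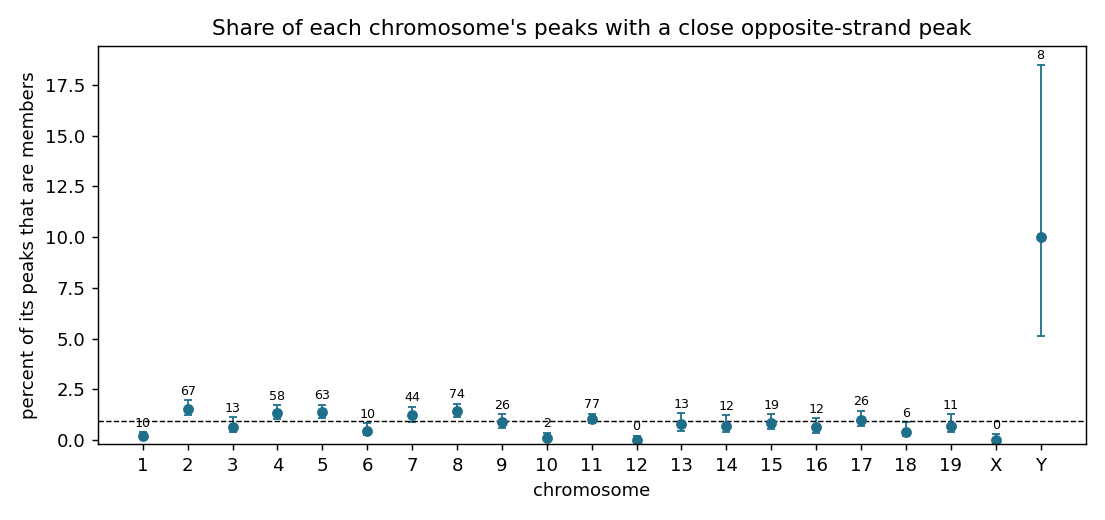
Percent of each chromosome's nuclear peaks that had an opposite-strand peak within 1000 bases (points) with 95% Wilson intervals (lines); the number above each is its count of members and the dashed line marks 0.926%, the share over all nuclear peaks. Chromosomes 12 and X have none, chromosomes 1 and 10 lie low, and Y stands high on 8 peaks of 1 cluster.

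The gaps showed no break at the limit of 1000 bases. Divergent gaps had a median of 520 bases (range 5 to 993) and convergent gaps of 490 (0 to 1000). In bins of 250 bases below the limit there were 60, 55, 70 and 63 divergent pairs and 53, 50, 51 and 48 convergent pairs. In the next 4 bins, from 1000 bases upwards, there were 61, 67, 78 and 82 divergent pairs and 43, 39, 36 and 35 convergent pairs. The 43 include a pair at exactly 1000 bases, which is still within the limit. Divergent pairs outnumbered convergent ones in all 8 bins. The pairs just inside the limit were convergent pairs at 1000 bases in Phykpl, 999 in Sfpq and 997 in Kxd1, and those just outside lay at 1005 and 1006 bases in the chromosome 2 cluster beside Platr27 and at 1011 in Phykpl.

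**Figure D5:**
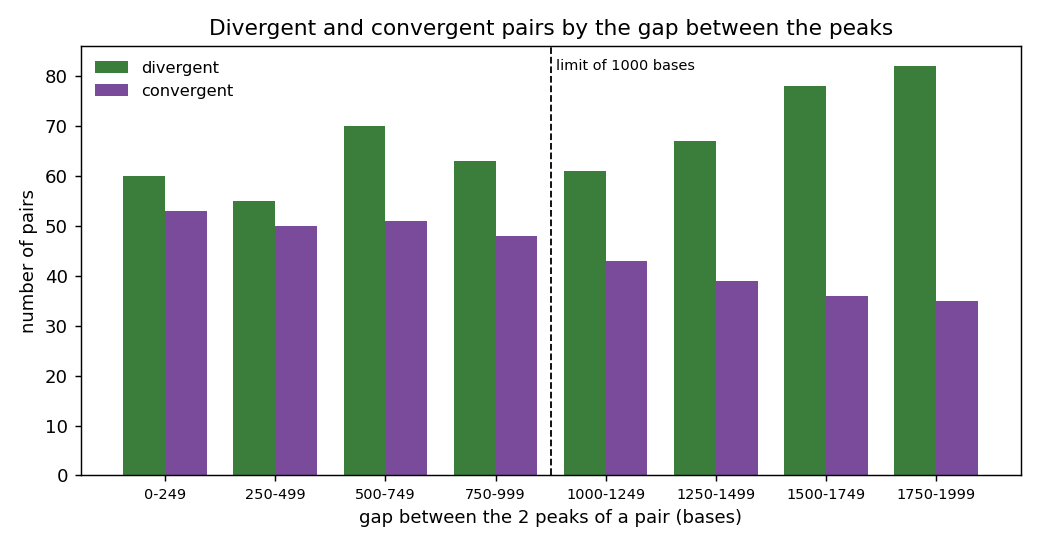
Number of divergent (left bar) and convergent (right bar) pairs by the gap between their peaks, in bins of 250 bases. The dashed line marks the limit of 1000 bases; divergent counts run from 55 to 82 and convergent counts from 53 down to 35 over the bins shown.

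Members had fewer neighbours on their own strand than other peaks, by medians. Their median width was 184 bases (quartiles 135.5 and 252.5), against 196 (146 and 268) for the other nuclear peaks. The median number of same-strand peaks within 5000 bases was 5 for members and 9 for the others. No same-strand peak lay within 5000 bases of 103 members (18.7%), against 6.68% of the others. Most members, 327, had 1 partner on the other strand, 57 had at least 5, and the largest number was 10.

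Loci listed for transcripts of both strands mostly did not hold peaks in both genes. Members were 0.926% of all nuclear peaks and lay in 2.07% of protein-coding genes with a peak, so counts near 0 here are read as no result about the loci. The lists of loci were chosen with earlier results of these data known. Of 18 loci listed as sense-antisense, 17 were in the gene table. Both gene bodies held a peak, on either strand, in 4, and none had a member. In Tsix and Xist, the antisense and sense RNAs of the X inactivation centre, Tsix held 53 peaks and Xist 30, all on the plus strand. Kcnq1ot1 and Kcnq1, at an imprinted locus, each held 34 peaks, all on the minus strand. Sox2ot and Sox2 each held 6, all on the plus strand. Sox2ot and Sox2 are read from the same strand, so that locus was listed but is not a sense-antisense pair. The genes of each of these loci overlap, so their counts can share peaks, and peaks were counted by position alone. Tsix is read from the plus strand and Kcnq1ot1 from the minus strand. The peaks counted in Xist and Kcnq1 therefore lay antisense to those genes. Snhg14 had 1 plus-strand and 38 minus-strand peaks and Ube3a 8 plus-strand peaks, with the closest opposite-strand peaks 719242 bases apart.

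Of 15 listed bidirectional promoters, both genes held a peak in 6 and the peaks came within 1000 bases in 1, Hspd1 and Hspe1. Hspd1 held 16 minus-strand peaks in all and Hspe1 held 3 plus-strand peaks. In the other 5 both genes held peaks on opposite strands but farther apart, and 4 of them are described. Ppat and Paics, of purine synthesis, had 21 and 9 peaks with the closest 5621 bases apart, and Gart and Son had 21 and 31 with the closest 6574 apart. For Brca1 and Nbr1 the closest gap was 11658 bases, and for Sirt3 and Psmd13 it was 18733. Of 4 listed convergent pairs, 3 were in the table, both genes held a peak in 1, and none had a member.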

How the data were processed

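Per the file's source column, PEAKachu called the peaks. Neither its version nor its settings, nor how it used IgG, is given in the sources used here. The submitters' processing notes name Bowtie2 2.2.6 and the builds hg19 and mm10. Of these mm10 is the mouse build and matches GRCm38.p6, the assembly of the RefSeq tables. The authors deposited start and end positions and the strand of each peak, with every score cell empty. From these positions, gaps, overlaps, clusters and the nearest genes were computed with Python (pandas and numpy), after a test of the pairing on simulated peaks. No test was run: the list pools the samples, so it gives no error between replicates, and shares carry 95% Wilson intervals that cover counting error only. Genes came from a RefSeq table; gene strand was taken only from the promoter windows and exons were not analysed here.

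The members, gene lists and rules were chosen with earlier results of these data known. Named by rule were the 10 genes with the most members (12 with ties), the 5 clusters with the most pairs of each arrangement, the 3 longest overlaps, the 3 pairs nearest the limit on each side and listed loci with peaks in both genes. Other genes were named after their values were seen. Alternatives changed the distance limit, merging, width, gene assignment and chaining. Some loci within this rule are not reported here.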

Additional observations from a re-analysis of the deposited data

How the results depend on the processing

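Of 43 values recomputed under another choice, 24 stayed within 1.5 times the reported count or inside the 95% interval of the reported share, and 19 did not. The distance limit set the counts: overlap alone left 191 peaks, and a limit of 2000 bases gave 870. The share of nuclear peaks was 0.645% at 500 bases and 1.46% at 2000, and 0.452% among peaks of at least the median width of 196 bases. Divergent pairs numbered 116 at 500 bases and 536 at 2000, and convergent pairs 103 and 355. Counting each member once, by its nearest partner, left 227 of 353 members in divergent and 133 of 262 in convergent pairs, while the 191 in overlapping pairs stayed as they were. Requiring an overlap of at least 50% of the narrower peak left 75 overlapping pairs. A gene end lay within 500 bases in 3.45% of convergent pairs and within 2000 in 24.1%. For divergent pairs a start lay within 500 bases in 20.6% and within 2000 in 28.2%, for overlapping pairs in 5.31% and 9.73%, and for convergent pairs in 1.97% and 5.42%. The shares of overlapping and convergent pairs at starts, and of overlapping and divergent pairs at ends, were recomputed at these limits after seeing the data. Leaving out the largest cluster, an alternative chosen after seeing the data, left 526 peaks and 98, 223 and 180 overlapping, divergent and convergent pairs. No paired analysis was possible because the list gives nothing per replicate.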
